A study of Mus musculus with 6 samples.

Results

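The non-collagen, non-laminin matrix of mouse RM1 prostate cancer cells was followed through 43 genes for glycoproteins, proteoglycans, matricellular proteins and growth factor binding proteins. They were taken by name from the 23791 named genes of the count table, and all 43 had an entry. RNA had been sequenced from 6 libraries of RM1, a mouse prostate cancer line of strain C57BL/6. Unlabelled RM1 in culture gave 2 libraries (a and b). RM1536, the same line labelled with eCFP for fluorescence and luc2, a luciferase, for bioluminescence and pooled from clones 5, 3 and 6, gave 2 culture libraries (a and b), and all cells recovered from the animal were RM1536. The library called bone came from tumour cells of the femur and the library called lung from tumour cells of the lung, taken from 1 mouse on day 16 after RM1536 cells stained with the dye PKH26 had been injected into the heart. The recovered cells were PKH-negative. All 4 kinds of cells were isolated by FACS and grown in DMEM with 5% FBS until they covered 85% of a flask, and RNA with a RIN above 6.8 was used. Bone and lung therefore stand for regrown cells of 1 animal, without a replicate, and nothing in the labels tells if a and b come from separate cultures. The p-values therefore measure only the spread between these samples, which may be technical, and the spread of the bone and lung libraries was taken to be that of the culture duplicates.

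The extracellular matrix is the network of secreted proteins around cells. Fibronectin and nidogens link cells, collagens and laminins, and fibrillins assemble into microfibrils that carry elastin and hold latent TGF-beta through the LTBP proteins. Proteoglycans such as perlecan and biglycan bind growth factors and water, matricellular proteins such as thrombospondins and tenascin-C alter how cells hold on to the matrix, and the IGF-binding proteins control how much insulin-like growth factor reaches its receptor. In bone and lung metastasis these proteins are known both as products of the host stroma and as products of the tumour cells.

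Libraries held between 22763835 and 30303566 counts, and levels are given as CPM, counts per 1000000 counts scaled by TMM factors. Of the markers of prostate and epithelial cells, Krt8 lay between 966 and 2367 CPM in the 6 libraries, whereas Krt19 stood at 309.7 and 307 CPM in RM1 and 7.25 to 19.5 elsewhere. Hoxb13 and Krt5 had 0 reads in all of them and Epcam reached no more than 1.33 CPM. Of 6 measured leukocyte markers, 4 stayed under 1 CPM in all libraries, Ptprc at or under 0.067, but Cd68 lay between 3.59 and 43.5 CPM in culture and at 19.7 and 20.2 in bone and lung, and Lyz2 had 0 reads in the culture libraries and 2.68 and 2.88 CPM in bone and lung. Of 5 endothelial markers 4 stayed under 1 CPM, Cdh5 at or under 0.64, and Pecam1 had at most 0.36 CPM in culture, 1.27 in bone and 0.99 in lung. In RNA of whole cultures, fewer cells that express a gene and less RNA per cell cannot be told apart. Of the 43 members, 38 passed the filter on low counts. The other 5 were Igfbp2 and Igfbp5, with 0 reads in all libraries (a limit of 0.0971 to 0.132 CPM), Mfap2 and Mfap5 with at most 3 reads, and Nid2 with 6 and 3 reads in RM1 and 0 elsewhere. Members that passed through a few libraries alone, such as Postn and Eln, had to differ between libraries, so counts over the 38 are given as a description.

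Levels per kb of exon, with the exons of all transcripts merged, are roughly comparable between genes. By this measure Sparc, the collagen-binding protein also called osteonectin, had the highest mean level of the members. Levels of Sparc were 400.2 and 317 CPM per kb for RM1, 375 and 344 for RM1536, 282 for bone and 371 for lung. It varied least of the 38, by 1.42 times between its highest and lowest library. The next in order were Fn1 (fibronectin), Igfbp4, Thbs2 (thrombospondin-2) and Aebp1, a secreted collagen-binding protein, with means of 202, 196, 184 and 183 CPM per kb against 348 for Sparc. The SD over the 6 libraries was 148 for Fn1 and 126 for Thbs2, so the order of these 4 lay within the spread between libraries. Fn1 exceeded Sparc in lung, at 453 against 371 CPM per kb, and Thbs2 exceeded it in bone, at 388 against 282. RM1 libraries held 476 and 661 CPM of Aebp1, RM1536 libraries 869 and 919, bone 591 and lung 934. For Aebp1, RM1536 and lung lay above RM1 and bone without overlap. At the other end, Postn (periostin), Eln (elastin), Lum (lumican) and Ltbp2 stayed under 0.72 CPM per kb in every library. Together the 43 members took 0.825% to 1.49% of the counts of a library, lowest in RM1 b and highest in lung, and the share of Fn1 within that sum ran from 7.28% in bone to 33.5% in lung.

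**Figure D1:**
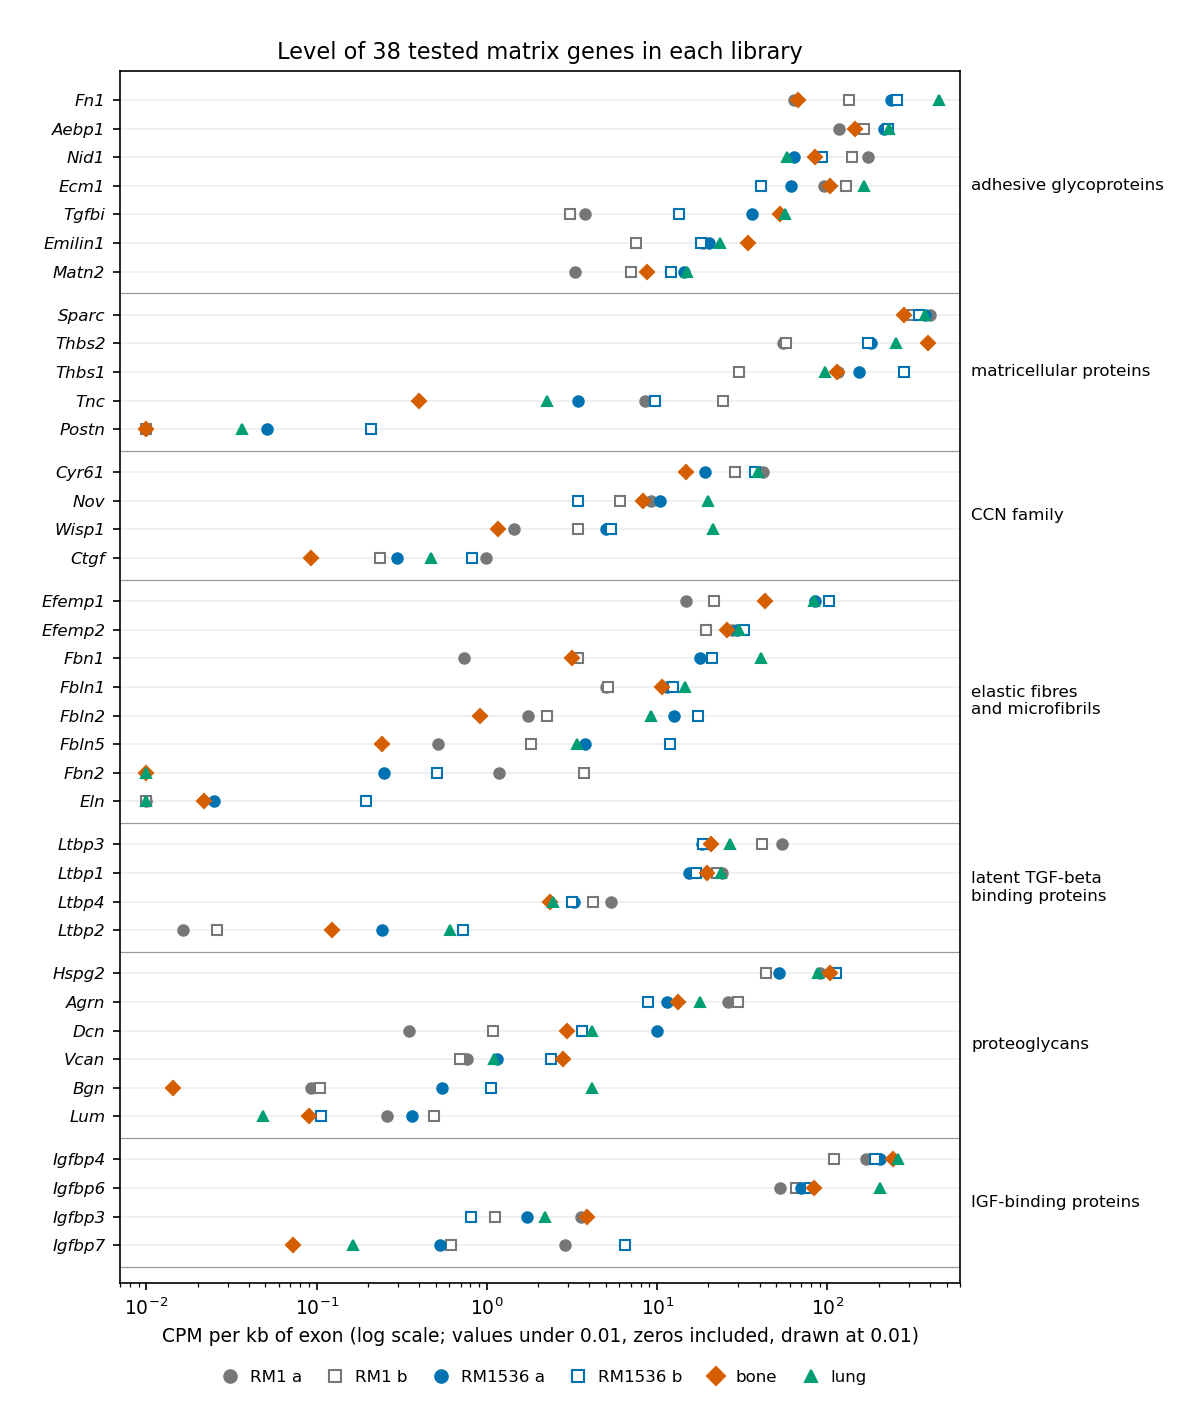
Level of each of the 38 tested members in CPM per kb of exon (log axis), grouped by role; each point is 1 library (grey RM1, blue RM1536; filled circle a, open square b; orange diamond bone, green triangle lung). Sparc points lie close together, whereas the bone point of Bgn, Fbln5, Tnc and Wisp1 lies to the left of all others of its gene.

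The members differed between duplicates as well. Between RM1 a and b, 15 of 38 members differed by 2-fold or more (12.9% of all genes tested), and between RM1536 a and b also 15 (13.8% of all genes tested). Thbs1, a matricellular protein that activates latent TGF-beta, is an example. Thbs1 reached 696 and 184 CPM across the RM1 pair, 925 and 1712 across the RM1536 pair, then 690.4 for bone and 587 for lung. RM1 a stood at the level of bone and lung, and RM1 b was the lowest of the 6. Both RM1536 libraries lay above both RM1 libraries. The log2 fold change of Thbs1 between these groups was 1.58 ± 0.64 (SE; adjusted p = 0.210 by edgeR). Hspg2, the gene of the basement membrane proteoglycan perlecan, also differed between duplicates. For Hspg2 the RM1 pair gave 1295 and 625 CPM, the RM1536 pair 745 and 1615, the bone library 1487 and the lung library 1265. In both genes RM1536 b was the highest library, and the RM1 and RM1536 groups of Hspg2 overlapped.

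RM1536 and RM1 were set side by side first, which asks where the labelled line and the parental cells differ. Of the 7 members that rose in RM1536, 3 were genes of elastic fibres and microfibrils: Fbln1, Fbln2 and Efemp1. This role holds 8 of the 38 tested members. Tgfbi, Thbs2, Ltbp2 and Bgn also rose, and Ltbp3 and Agrn fell. The 7 of 38 members called higher stand beside 2.1% of all genes tested, and the 2 called lower beside 3.54%. The median log2 fold change was 0.60 over the members and 0.02 over all genes tested. RM1536 lay above RM1 without overlap in 21 members (27.2% of all genes) and below it in 7 (26.9%).

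Fbln2 codes for fibulin-2, which bridges fibronectin, fibrillin and basement membranes. Levels of Fbln2 were 11.1 and 14.3 CPM for RM1, 79.8 and 110.3 for RM1536, 5.80 for bone and 58.9 for lung. RM1536 lay above RM1 in every library, lung was below RM1536 but above RM1, and bone was below all others. Its log2 fold change was 2.90 ± 0.27 (SE; adjusted p = 0.00942). Efemp1, coding for fibulin-3, had the same order in culture. RM1 libraries held 30.0 and 43.7 CPM of Efemp1, RM1536 libraries 172 and 207, bone 87.9 and lung 169. This is a log2 fold change of 2.36 ± 0.27 (SE; adjusted p = 0.0134), and bone lay between the RM1 and RM1536 levels. Fbln1, coding for fibulin-1, rose by less. Fbln1 reached 21.7 and 22.4 CPM across the RM1 pair, 49.7 and 54.0 across the RM1536 pair, then 46.7 for bone and 63.3 for lung. The 4 libraries derived from RM1536 did not overlap with RM1, and the log2 fold change was 1.23 ± 0.20 (SE; adjusted p = 0.0276).

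Of the other 5 tested genes of this role, 4 lay higher in RM1536 and 1 lower, and edgeR called 0 of them (4 at an unadjusted p below 0.05). DESeq2 called 6 of the 8 tested genes of this role (10.6% of all genes) and limma-voom 4 (6.2%). Fbn1, the gene of fibrillin-1, the main microfibril protein of adult tissue, missed the threshold. For Fbn1 the RM1 pair gave 8.85 and 41.5 CPM, the RM1536 pair 217 and 254, the bone library 38.1 and the lung library 491. The culture groups did not overlap, and RM1 a and b differed by 4.68 times. The log2 fold change was 3.23 ± 0.69 (SE; adjusted p = 0.0548); an antisense gene, Gm9913, covers 20.1% of the Fbn1 exons and had between 0 and 10 reads a library. Fbn2, the fibrillin of developing tissue, lay the other way. Levels of Fbn2 were 15.5 and 49.3 CPM for RM1, 3.30 and 6.70 for RM1536, 0 for bone and 0 for lung. Both RM1 libraries were above both RM1536 libraries, with a log2 fold change of -2.69 ± 0.64 (SE; adjusted p = 0.0697). Fbln5, coding for fibulin-5, which guides elastin onto microfibrils, spread widely within each pair. RM1 libraries held 3.57 and 12.6 CPM of Fbln5, RM1536 libraries 26.1 and 81.6, bone 1.67 and lung 23.4. The culture groups did not overlap, and the log2 fold change was 2.74 ± 0.76 (SE; adjusted p = 0.0997). Efemp2 (fibulin-4) stayed between 73.3 and 122 CPM in all 6 libraries, and Eln had 1 read in each RM1 library, 5 and 49 for RM1536, 4 for bone and 1 for lung, or 28.2 times as much in RM1536 as in RM1 (counting interval at 95%, 7.43 to 239).

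Among adhesive glycoproteins edgeR called 1 of 7 tested, higher in RM1536 (2.1% of all genes), and 6 had an unadjusted p below 0.05. DESeq2 called 5 of the 7 (10.6% of all genes) and limma-voom 1 (6.2%). Tgfbi codes for a secreted protein induced by TGF-beta that joins collagens to integrins. Tgfbi reached 14.1 and 11.6 CPM across the RM1 pair, 135 and 50.5 across the RM1536 pair, then 199 for bone and 212 for lung. All 4 RM1536-derived libraries exceeded RM1, although RM1536 a and b differed by 2.68 times. Its log2 fold change was 2.85 ± 0.49 (SE; adjusted p = 0.0318). Fn1 was also higher in each RM1536 library. For Fn1 the RM1 pair gave 739 and 1569 CPM, the RM1536 pair 2770.0 and 2976, the bone library 779.6 and the lung library 5295. Bone fell within the RM1 range and lung was the highest of all, and the log2 fold change was 1.32 ± 0.37 (SE; adjusted p = 0.107). Matn2 (matrilin-2) lay higher in RM1536 without overlap. Levels of Matn2 were 20.7 and 43.8 CPM for RM1, 89.5 and 75.8 for RM1536, 54.4 for bone and 93.9 for lung. This is a log2 fold change of 1.36 ± 0.37 (SE; adjusted p = 0.0978). Nid1, which joins laminin to collagen IV, and Ecm1 lay lower. Levels of Nid1 were 1206 and 964 CPM for RM1, 439 and 641 for RM1536, 585 for bone and 401 for lung. RM1 libraries held 242 and 322 CPM of Ecm1, RM1536 libraries 155 and 103, bone 259 and lung 416. Neither pair of culture groups overlapped, with a log2 fold change of -1.01 ± 0.27 (SE; adjusted p = 0.0916) for Nid1 and a log2 fold change of -1.13 ± 0.28 (SE; adjusted p = 0.0802) for Ecm1; lung was the highest library for Ecm1 and the lowest for Nid1. Aebp1 and Emilin1, a glycoprotein of elastic fibres, had adjusted p of 0.176 and 0.487.

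Of the 5 matricellular genes, Thbs2, an inhibitor of new vessel growth that also shapes collagen fibrils, was called. At an unadjusted p below 0.05 edgeR had 3 of the 5. DESeq2 called 3 (10.6% of all genes) and limma-voom 1 (6.2%). Thbs2 reached 385 and 398 CPM across the RM1 pair, 1259 and 1214 across the RM1536 pair, then 2718 for bone and 1773 for lung. Duplicates were close, RM1 was lowest and bone highest. The log2 fold change was 1.66 ± 0.20 (SE; adjusted p = 0.0146). Tnc, the gene of tenascin-C, which loosens cell contact with fibronectin, had wide duplicates. For Tnc the RM1 pair gave 65.9 and 189 CPM, the RM1536 pair 26.6 and 75.9, the bone library 3.12 and the lung library 17.6. RM1536 b overlapped with RM1, and the log2 fold change was -1.31 ± 0.64 (SE; adjusted p = 0.294). Postn, better known from fibroblasts and bone lining cells, gave 0 and 1 reads for RM1, 11 and 56 for RM1536, 0 for bone and 8 for lung. The CCN genes code for small secreted proteins that bind integrins and growth factors, and edgeR, DESeq2 and limma-voom each called 0 of the 4 here (1, Wisp1, at an unadjusted p below 0.05). Ctgf stood at 0.67 to 2.81 CPM and Cyr61 at 38.5 to 84.6 CPM in the 4 culture libraries, with overlapping groups in each; Nov, at 9.84 to 29.9 CPM, overlapped too. Wisp1 was higher in RM1536 without overlap. Levels of Wisp1 were 7.98 and 19.0 CPM for RM1, 27.9 and 29.9 for RM1536, 6.46 for bone and 118 for lung. Its log2 fold change was 1.10 ± 0.41 (SE; adjusted p = 0.185).

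The 4 LTBP genes code for proteins that tether latent TGF-beta to microfibrils (Ltbp1, Ltbp3 and Ltbp4) or bind fibrillin without that cargo (Ltbp2), and they moved in both directions. Ltbp3 fell. RM1 libraries held 490.1 and 376 CPM of Ltbp3, RM1536 libraries 166 and 169, bone 189 and lung 242. RM1536 lay below RM1 in each library, as did bone and lung. This is a log2 fold change of -1.37 ± 0.22 (SE; adjusted p = 0.0283). Ltbp2 rose from a level near 0. Ltbp2 reached 0.13 and 0.21 CPM across the RM1 pair, 1.97 and 5.89 across the RM1536 pair, then 1.01 for bone and 4.97 for lung. It had 4 and 6 reads in RM1 against 49 and 182 in RM1536, and the log2 fold change was 4.48 ± 0.74 (SE; adjusted p = 0.0291). Ltbp1 and Ltbp4 lay lower in RM1536 without overlap, at adjusted p of 0.177 and 0.212.

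Proteoglycans also split. Agrn codes for agrin, a heparan sulphate proteoglycan of basement membranes and nerve-muscle contacts, and fell. For Agrn the RM1 pair gave 242 and 276 CPM, the RM1536 pair 106 and 82.2, the bone library 123 and the lung library 166. Both RM1 libraries exceeded the other 4, and the log2 fold change was -1.46 ± 0.23 (SE; adjusted p = 0.0251). Bgn codes for biglycan, a small leucine-rich proteoglycan abundant in bone matrix, and rose from a low level. Levels of Bgn were 0.57 and 0.64 CPM for RM1, 3.30 and 6.44 for RM1536, 0.0878 for bone and 25.3 for lung. The log2 fold change was 3.01 ± 0.45 (SE; adjusted p = 0.0238). Its relative Dcn (decorin), which binds collagen and TGF-beta, was higher by a similar amount and missed the threshold. RM1 libraries held 2.04 and 6.34 CPM of Dcn, RM1536 libraries 57.9 and 21.1, bone 17.1 and lung 24.3. The culture groups did not overlap, but the duplicates differed by 3.11 times in RM1 and 2.75 times in RM1536, and the log2 fold change was 3.24 ± 0.70 (SE; adjusted p = 0.0548). Vcan, the large hyaluronan-binding proteoglycan versican, was higher in RM1536. Vcan reached 11.0 and 10.02 CPM across the RM1 pair, 16.5 and 34.5 across the RM1536 pair, then 40.2 for bone and 15.8 for lung. Its culture groups did not overlap, with a log2 fold change of 1.28 ± 0.38 (SE; adjusted p = 0.116), and Hspg2 and Lum had adjusted p of 0.761 and 0.634. Among IGF-binding proteins 0 of the 4 tested passed by edgeR, DESeq2 or limma-voom (0 of 4 also at an unadjusted p below 0.05 in each). Igfbp4, an inhibitor of IGF action, was the most abundant. For Igfbp4 the RM1 pair gave 746 and 483 CPM, the RM1536 pair 901 and 844, the bone library 1068 and the lung library 1141. Igfbp6, selective for IGF-II, ran from 58.6 to 87.5 CPM in culture, and Igfbp7 from 0.64 to 7.80, the last with overlapping groups. Igfbp3, the main carrier of IGF in blood, was low. Levels of Igfbp3 were 11.2 and 3.51 CPM for RM1, 5.39 and 2.52 for RM1536, 12.1 for bone and 6.83 for lung. RM1 and RM1536 overlapped, and bone was the highest library.

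**Figure D2:**
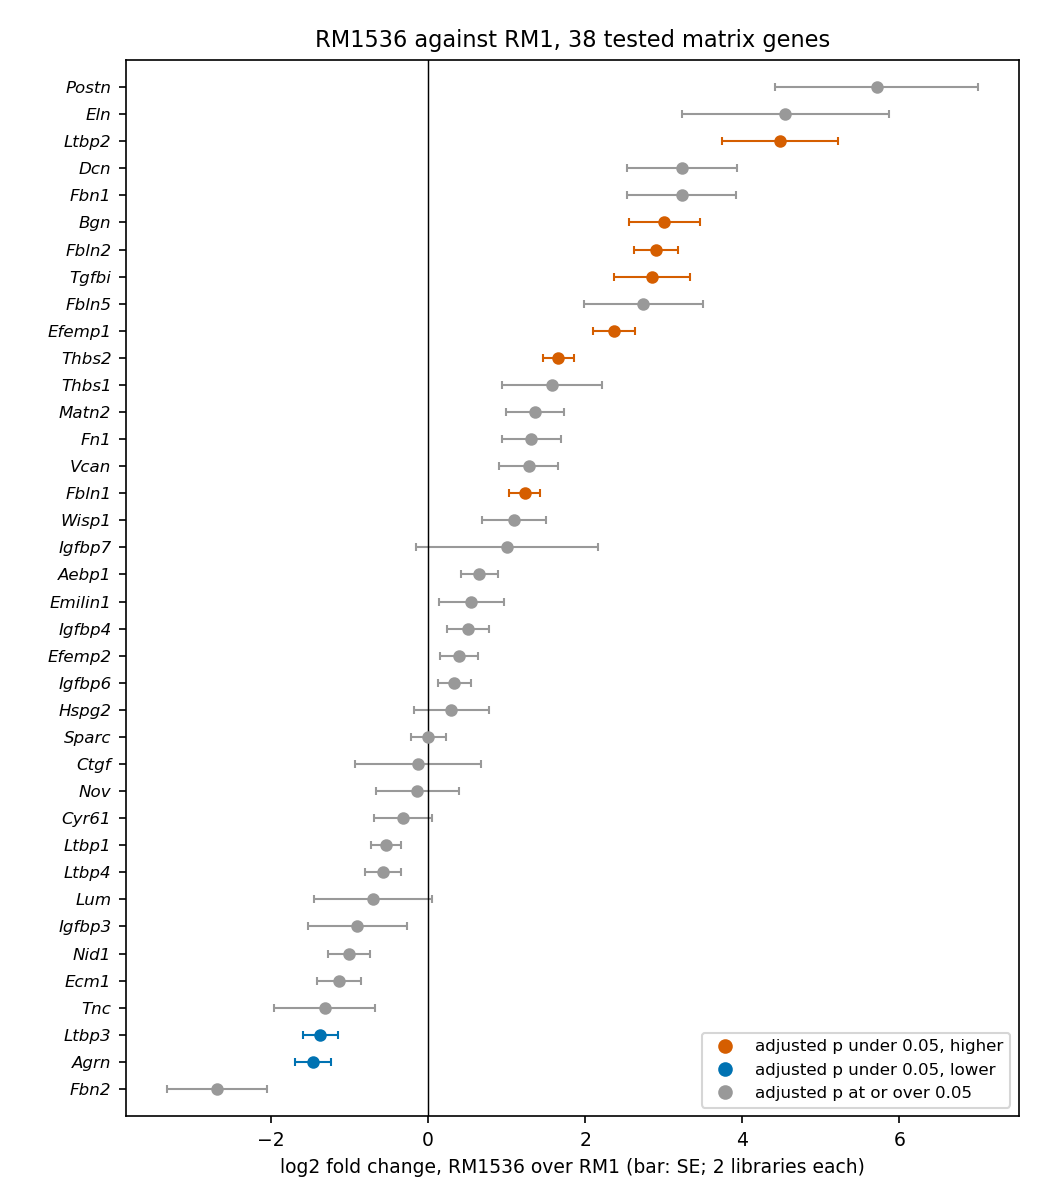
Log2 fold change of RM1536 over RM1 with its SE for the 38 tested members, from 2 libraries in each group. Orange and blue points passed the threshold; Dcn and Fbn1 have larger changes than Thbs2 or Fbln1 but wider SE bars.

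Calls in this comparison rested on few libraries. Efemp1 and Fbln2 passed under each of the 12 other settings tried (tools, scaling, filters, the replicate block and left-out libraries). Without RM1 a, Tgfbi (adjusted p = 0.0602), Thbs2 (0.0732), Fbln1 (0.110), Ltbp2 (0.0763), Ltbp3 (0.0802) and Bgn (0.0666) missed the threshold. Without RM1 b it was missed by Tgfbi (0.0513), Thbs2 (0.0595), Fbln1 (0.102) and Agrn (0.0552). Leaving out RM1536 a ended the calls of Fbln1 and Ltbp3. Leaving out RM1536 b ended those of Fbln1, Ltbp2, Ltbp3, Bgn and Agrn. Calls over all genes tested became fewer as well in both fits. DESeq2 called 20 members (10.6% of all genes) and limma-voom 9 (6.2%), with Fbn1 (0.0319) in place of Ltbp2 (0.0521).

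Start regions of called members are shown because the calls of this comparison turn on these genes, and RefSeq start regions (GRCm38.p6) were matched by symbol for 30 of the 43 members. Each line gives the 250 bases upstream of the start of a called gene with 1 listed start, 5′ to 3′ on the gene's strand. Capitals mark matches to 4 motifs searched on both strands: the AP-1 motif TGANTCA, the TEAD motif GGAATG, the TATA box TATAAA and the GC box GGGCGG, whose matches can overlap one another.
Fbln2 (chr6:91212514-91212763, plus strand): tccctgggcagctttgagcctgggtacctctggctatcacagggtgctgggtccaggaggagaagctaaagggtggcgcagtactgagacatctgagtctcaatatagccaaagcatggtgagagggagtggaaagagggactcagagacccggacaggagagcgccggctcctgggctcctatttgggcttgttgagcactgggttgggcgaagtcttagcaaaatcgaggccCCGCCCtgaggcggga
Efemp1 (chr11:28852955-28853204, plus strand): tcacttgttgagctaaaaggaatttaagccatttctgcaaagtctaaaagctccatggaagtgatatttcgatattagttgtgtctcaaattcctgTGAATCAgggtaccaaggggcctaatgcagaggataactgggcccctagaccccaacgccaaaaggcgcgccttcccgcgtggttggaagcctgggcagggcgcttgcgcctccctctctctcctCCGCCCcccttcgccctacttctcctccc
Ltbp2 (chr12:84876492-84876741, minus strand): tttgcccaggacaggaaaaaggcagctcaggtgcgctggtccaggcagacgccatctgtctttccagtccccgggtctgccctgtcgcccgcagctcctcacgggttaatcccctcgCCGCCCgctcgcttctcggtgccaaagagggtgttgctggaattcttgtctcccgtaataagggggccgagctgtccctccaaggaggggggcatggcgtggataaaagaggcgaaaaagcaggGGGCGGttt
Tgfbi (chr13:56609336-56609585, plus strand): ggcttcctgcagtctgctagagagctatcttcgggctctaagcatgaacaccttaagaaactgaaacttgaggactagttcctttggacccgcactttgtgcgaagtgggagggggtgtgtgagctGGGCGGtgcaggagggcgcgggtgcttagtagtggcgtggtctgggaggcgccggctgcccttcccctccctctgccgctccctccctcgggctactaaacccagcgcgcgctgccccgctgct
Thbs2 (chr17:14694263-14694512, minus strand): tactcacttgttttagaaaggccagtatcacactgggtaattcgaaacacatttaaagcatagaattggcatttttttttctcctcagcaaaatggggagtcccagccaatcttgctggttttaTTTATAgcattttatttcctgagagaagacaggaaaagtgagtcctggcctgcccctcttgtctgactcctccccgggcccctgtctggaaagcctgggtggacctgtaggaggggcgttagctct
Ltbp3 (chr19:5740650-5740899, plus strand): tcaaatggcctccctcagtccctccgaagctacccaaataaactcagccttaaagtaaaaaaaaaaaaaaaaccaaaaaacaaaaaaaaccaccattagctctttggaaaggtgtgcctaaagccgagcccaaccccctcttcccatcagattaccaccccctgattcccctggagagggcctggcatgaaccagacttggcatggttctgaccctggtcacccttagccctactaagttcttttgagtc
Bgn (chrX:73483351-73483600, plus strand): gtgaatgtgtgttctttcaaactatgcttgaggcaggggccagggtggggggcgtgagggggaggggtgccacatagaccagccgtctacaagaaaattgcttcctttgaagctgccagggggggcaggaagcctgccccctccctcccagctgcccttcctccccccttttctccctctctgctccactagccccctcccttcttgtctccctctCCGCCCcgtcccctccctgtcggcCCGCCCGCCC
A GC box was in 25 of the 42 start regions of the 30 matched members (59.5%) and in 32.7% of all 32851 regions of this length, and the median GC content was 61.2% for members and 52.4% for all. The TATA box was in 16.7% of member regions and 12.4% of all, the AP-1 motif in 7.14% and 6.75%, and the TEAD motif in 7.14% and 12.6%. Among the 9 called members a GC box was in start regions of Agrn, Bgn, Efemp1, Fbln1, Fbln2, Ltbp2 and Tgfbi, the AP-1 motif in Efemp1 and the TATA box in Thbs2. Ltbp3 held none of the 4 in this window. The matches describe letters only.

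The next comparisons ask what distinguishes cells regrown from bone or lung from the cultured line. In bone, 11 of the 38 members were 2-fold or more below both RM1536 libraries, and these included fibronectin, fibrillins, fibulins, tenascin-C, biglycan and Wisp1. No member passed the test in bone, so these are values of 1 library. All 8 tested genes of elastic fibres and microfibrils had a negative log2 fold change in bone, the smallest in size being -0.15 for Fbln1 and -0.26 for Efemp2. In lung 6 of the same 8 were negative. Of all genes tested, 47.0% had a positive log2 fold change in bone and 47.5% in lung. By edgeR 0 of 38 were called (0.0145% of all genes), an unadjusted p below 0.05 was reached by 13 (9.92% of all genes), and DESeq2 called 10 (2.75%) and limma-voom 0 (0%). The median log2 fold change was -0.60 over the members and -0.03 over all genes. A drop of 2-fold or more below both RM1536 libraries occurred in 5.15% of all genes tested, and 2 members, Thbs2 and Igfbp3, lay that far above (4.85% of all genes).

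Fbln2 had the lowest adjusted p in bone. Its 5.80 CPM there compare with 79.8 and 110.3 in RM1536, and the log2 fold change was -4.03 ± 0.39 (SE; adjusted p = 0.0686). Bgn had 2 reads in bone against 281 in RM1536, or 0.0174 times the level (counting interval at 95%, 0.00210 to 0.0635), at an adjusted p of 0.0843. Fbn2 had 0 reads in bone and in lung against 82 and 207 in RM1536, at least 39.3-fold lower in bone (adjusted p = 0.161) and at least 43.8-fold lower in lung (adjusted p = 0.278). The fibrillin of developing tissue was thus not detected at either site at this depth, whereas Fbn1 stood at 38.1 CPM in bone and 490.7 in lung. For Fbn1 in bone the log2 fold change was -2.63 ± 0.90 (SE; adjusted p = 0.394). Fbln5, at 1.67 CPM, had a log2 fold change of -5.01 ± 1.17 (SE; adjusted p = 0.219), and Tnc, at 3.12 CPM, a log2 fold change of -4.04 ± 0.99 (SE; adjusted p = 0.240). Bone was the lowest of the 6 libraries for both genes. For Fn1 the log2 fold change was -1.88 ± 0.50 (SE; adjusted p = 0.274), and for Wisp1 the log2 fold change was -2.16 ± 0.56 (SE; adjusted p = 0.264). Igfbp7, a weak binder of IGF, had 2 reads in bone and 5 in lung against 16 and 241 in RM1536. Thbs2 and Tgfbi were higher in bone by like amounts, with a log2 fold change of 1.14 ± 0.23 (SE; adjusted p = 0.167) and a log2 fold change of 1.10 ± 0.53 (SE; adjusted p = 0.595). Igfbp3 had a log2 fold change of 1.62 ± 0.74 (SE; adjusted p = 0.565) and duplicates that differed by 2.14 times. RM1 a and RM1 b lie outside the 2 groups and enter through the shared spread. When either was left out, more genes passed in bone, among all genes tested as well as among members. Log2 fold changes without RM1 b stayed close, at -4.03 for Fbln2, -2.63 for Fbn1, -5.01 for Fbln5, -2.16 for Wisp1 and -4.04 for Tnc.

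In lung the members spread both ways. Ecm1, Wisp1, Bgn and Igfbp6 were 2-fold or more above both RM1536 libraries (4 of 38; 5.68% of all genes), and Fbn2, Eln, Lum and Igfbp7 that far below (4 of 38; 6.64% of all genes). By edgeR 0 members were called (0% of all genes), an unadjusted p below 0.05 was reached by 8 (13.8%), and DESeq2 called 5 (2.6%) and limma-voom 0 (0%). Igfbp6 had the lowest adjusted p. RM1 libraries held 58.6 and 72.2 CPM of Igfbp6, RM1536 libraries 77.5 and 87.5, bone 93.2 and lung 227. Lung was above the other 5 libraries, which lay between 58.6 and 93.2 CPM, and the log2 fold change was 1.46 ± 0.25 (SE; adjusted p = 0.268). Wisp1 had a log2 fold change of 2.03 ± 0.47 (SE; adjusted p = 0.295), Bgn a log2 fold change of 2.37 ± 0.46 (SE; adjusted p = 0.278) and Ecm1 a log2 fold change of 1.69 ± 0.33 (SE; adjusted p = 0.278). Nov, of the CCN family, was also highest in lung, at 57.1 CPM against 9.84 to 29.9 in the other libraries, with a log2 fold change of 1.52 ± 0.61 (SE; adjusted p = 0.362). In Tgfbi, lung and bone stood close together and above both RM1536 libraries, at 212 and 199 CPM.

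**Figure D3:**
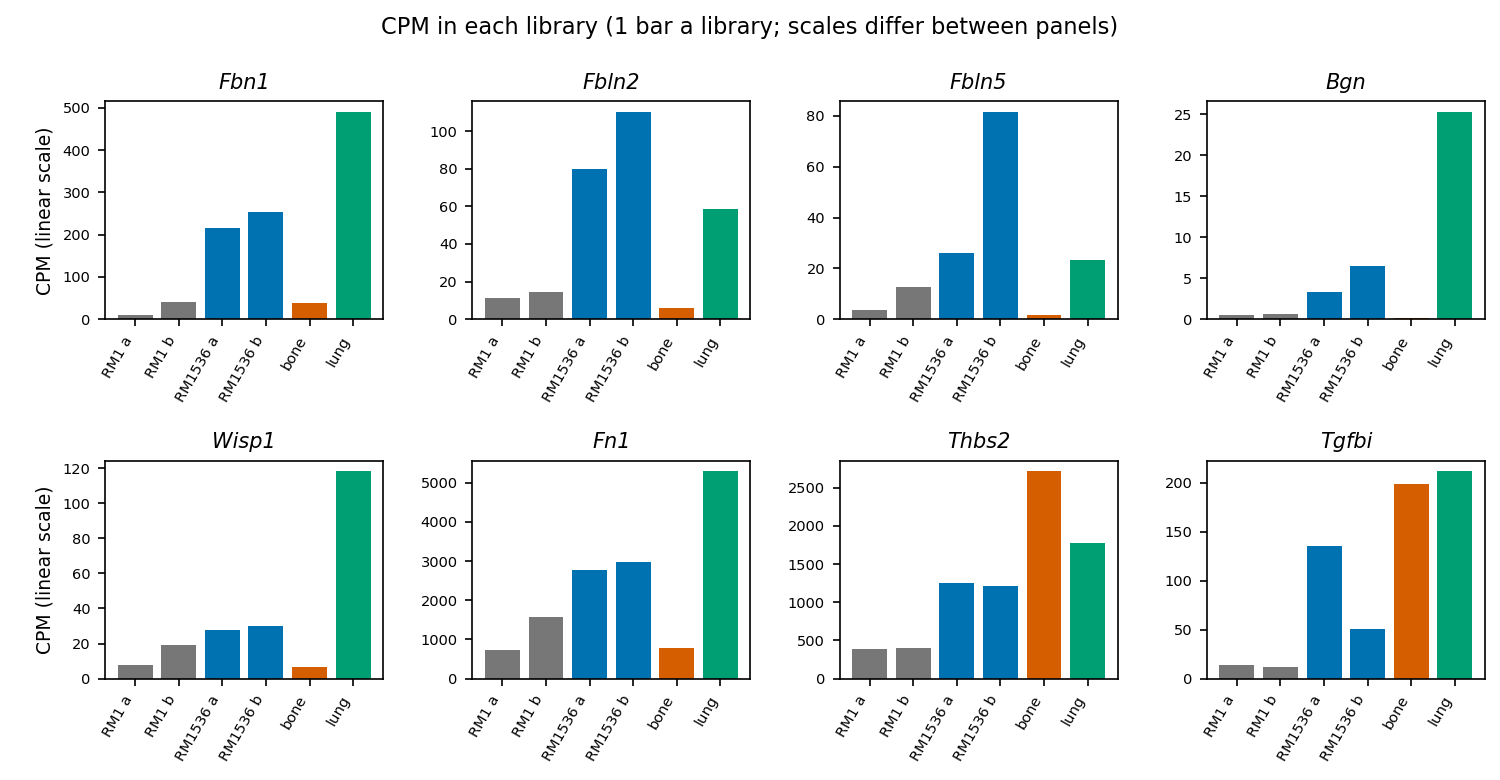
CPM of 8 members in each of the 6 libraries, 1 bar a library on linear axes that start at 0 and differ between panels. Fbn1, Fbln2, Fbln5, Bgn, Wisp1 and Fn1 are lower in bone than in either RM1536 library, while Thbs2 is highest in bone and Tgfbi is high at both sites.

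For the mean of bone and lung against RM1536, edgeR called 0 of 38 members (0.0289% of all genes), an unadjusted p below 0.05 was reached by 14 (13.3%), and DESeq2 called 8 (3.38%) and limma-voom 0 (0%). Fbln2 again had the lowest adjusted p (0.0800), followed by Fbn2 (0.119) and Ecm1 (0.188). The lower mean of Fbln2 came mostly from bone, with a log2 fold change of -4.03 there and -0.69 in lung. Fbn2 was at least 83.1-fold lower over both sites, and Ecm1 was higher in each than in RM1536 a and b. Without RM1 a or without RM1 b more genes passed, among all genes tested as well as among members. For Bgn the mean hid opposite values, since bone lay below and lung above RM1536.

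The last comparison sets bone against lung, sites of the same mouse. Bone was lower by 2-fold or more in 14 of 38 members (9.72% of all genes) and higher in 2, Eln and Vcan (9.46% of all genes). The 14 hold all 4 CCN genes, Fn1, Postn, Tnc, Fbn1, Fbln2, Fbln5, Ltbp2, Bgn, Igfbp6 and Igfbp7. For Eln, with 4 reads in bone and 1 in lung, and Igfbp7, with 2 and 5, the counting intervals of the ratio (0.440 to 219 and 0.0424 to 2.72) include equal levels. In 8 members bone was below and lung above both RM1536 libraries (Fn1, Matn2, Aebp1, Cyr61, Wisp1, Fbn1, Fbln1 and Bgn; 7.81% of all genes), and the reverse held for Vcan alone (7.58% of all genes). By edgeR 0 members were called (0.00723% of all genes), an unadjusted p below 0.05 was reached by 12 (8.47%), and DESeq2 called 7 (1.6%) and limma-voom 0 (0%). The median log2 fold change was -0.47 over the members and 0.02 over all genes.

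Read counts show the size of the gap in these libraries, with intervals that cover counting error only. Bgn had 2 reads in bone and 641 in lung, or 0.00347 times the lung level (counting interval at 95%, 0.000419 to 0.0126), at an adjusted p of 0.147. Wisp1 had 147 and 2998 reads, a ratio of 0.0545 (0.0459 to 0.0644; adjusted p = 0.216). These were the widest gaps among members with a mean of 5 CPM or more. Fbln5 had 38 and 592 reads (ratio 0.0714, interval 0.05003 to 0.0992; adjusted p = 0.499). Fbn1 had 868 and 12429 (0.0777, 0.0724 to 0.0832; adjusted p = 0.435). Fbn1 codes for a protein of the microfibril on which elastin is laid, and Fbln5 for one that guides elastin onto it. Fbln2 had 132 and 1491 (0.0985, 0.0818 to 0.118; adjusted p = 0.147). Fn1 had 17750 and 134119 (0.147, 0.145 to 0.150; adjusted p = 0.300), by far the largest difference in number of reads. Smaller gaps were seen in the other CCN genes, with ratios of 0.377 for Cyr61 (29.7 CPM in bone, 78.8 in lung), 0.412 for Nov (23.5 and 57.1) and 0.196 for Ctgf, the last from 6 and 34 reads. Vcan had a ratio of 2.54 (2.25 to 2.86), higher in bone. Without RM1 b, which belongs to neither site, more genes passed, among all genes tested as well as among members. The log2 fold changes in that fit were -4.19 for Wisp1, -3.69 for Fbn1, -8.10 for Bgn and -3.34 for Fbln2.

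**Figure D4:**
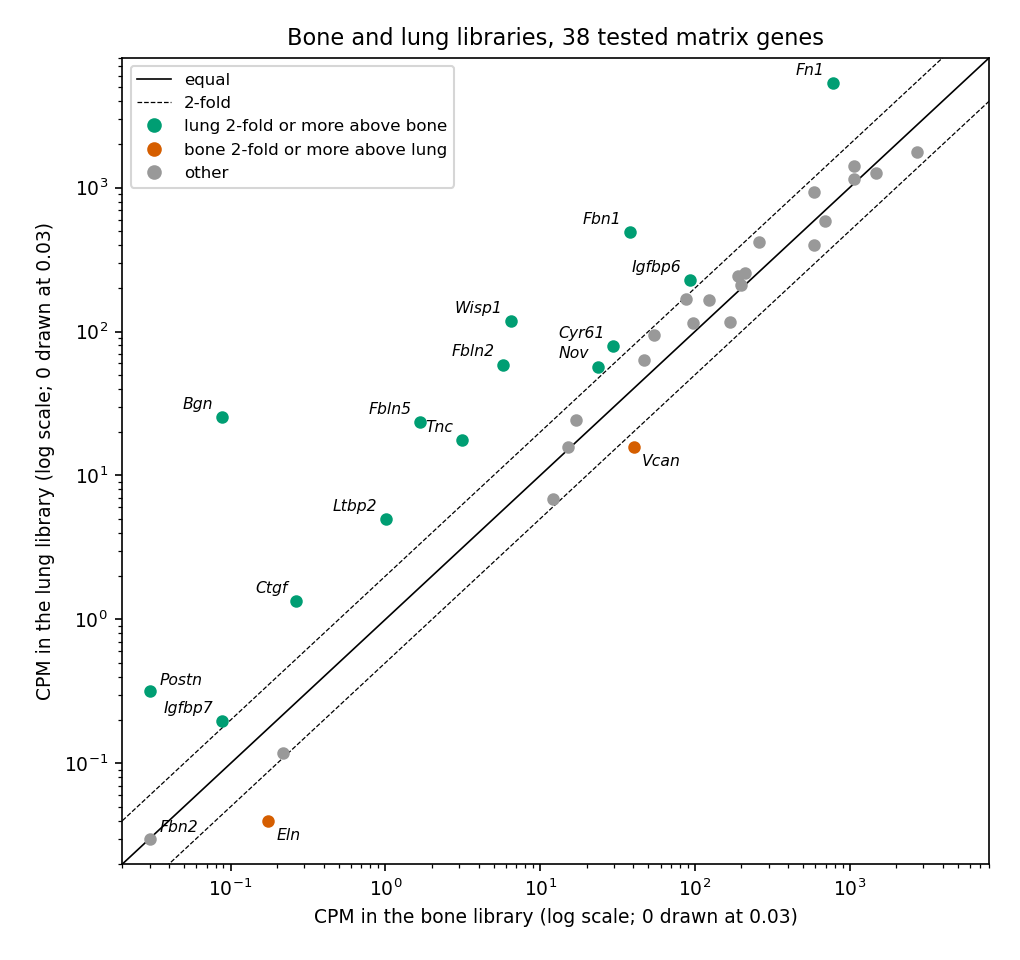
CPM of the 38 tested members in the bone library (x) and the lung library (y), both on log axes, with lines for equal levels and for 2-fold differences. The 14 green points lie 2-fold or more above the line of equality, and Vcan and Eln lie as far below it.

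Of the 7 stromal fibroblast markers in the table, Col1a1, Col1a2, Pdgfra, Pdgfrb and Acta2 (5 of 7) were higher in lung than in bone, the direction of the 14 members. Col1a1 stood at 0.79 CPM in bone and 604.0 in lung, against 8.85 to 27.8 in the culture libraries, and Pdgfrb at 1.32 in bone and 19.8 in lung. Pdgfra had 14.0 and 28.3 CPM, Acta2 3.34 and 7.34, and Col1a2 0.13 and 0.28, in bone and lung. RM1536 b stood apart from RM1536 a in Pdgfrb (59.5 against 4.99 CPM) and Acta2 (46.3 against 2.41). Between these duplicates 15 members differed by 2-fold or more. Postn, Tnc, Ctgf, Fbn2, Eln, Fbln5, Ltbp2, Vcan, Hspg2 and Igfbp7 were higher in RM1536 b. Tgfbi, Nov, Dcn, Lum and Igfbp3 were lower there, Dcn at 21.1 against 57.9 CPM. The called member Bgn was higher in RM1536 b by less, at 6.44 against 3.30 CPM. Col3a1 was higher in bone than in lung, at 919.7 CPM in bone, 413 in lung and 593 to 1377 in culture. The sum over the list with Col3a1 was 939 CPM in bone, 1073 in lung and 620 to 1403 in culture. Without it the other 6 summed to 19.5 CPM in bone and 659.7 in lung, against 26.0 and 26.9 in the RM1 pair, 29.6 in RM1536 a and 141 in RM1536 b. Thy1, another marker of the list, had 0 reads in 5 libraries and 0.032 CPM in RM1536 b. Endothelial markers summed to 1.36 CPM in bone, 1.18 in lung and 0.57 to 1.06 in culture. Osteoblast markers summed to 9.49 CPM in bone, 12.3 in lung and 3.50 to 7.01 in culture. Phex alone gave 8.78 in bone and 9.67 in lung. Of the 6 osteoblast markers, 3 were higher in lung than in bone and 2 lower. Bglap2 had 48 reads in lung, 0 in bone and at most 1 in a culture library. The part of other cells in these differences was not tested.

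Genes that work with the members were counted in 5 lists. In RM1536 against RM1, 2 of 43 tested other matrix proteins rose and 4 fell, 3 of 21 tested cell-surface receptors rose and 2 fell, and 1 of 12 genes of the IGF axis rose. Of 15 tested genes of TGF-beta storage and signalling, 2 rose and 2 fell, and 1 of 16 YAP and TEAD genes fell. Over the 107 tested genes of the lists that is 8 higher and 9 lower, beside 2.1% and 3.54% of all genes, and no list was tested against that share. Tinagl1, a basement membrane glycoprotein, held 636 and 456 CPM in RM1 but 60.6 and 77.2 in RM1536, and fell by 2.99 ± 0.27 in log2 units (adjusted p = 0.00934). Npnt (nephronectin) fell by 2.55 ± 0.50 (adjusted p = 0.0438), while Itga8, the integrin subunit that binds nephronectin, rose by 2.93 ± 0.31 (adjusted p = 0.0120). Levels of Itga8 were 1.40 and 1.42 CPM for RM1, 11.4 and 10.2 for RM1536, 1.36 for bone and 13.3 for lung. Dmp1 and Mfge8 fell, at adjusted p of 0.0242 and 0.0484. Itgb3, a receptor subunit for fibronectin and thrombospondins, rose by 1.57 ± 0.21 (adjusted p = 0.0185), as did the syndecan gene Sdc2 by 1.13 ± 0.20 (0.0359), whereas Sdc3 and Sdc4 fell by 1.36 ± 0.23 and 1.29 ± 0.25 (0.0328 and 0.0416). Lrrc32, which holds latent TGF-beta at the cell surface, rose by 5.02 ± 0.73 (0.0218), whereas Tgfb1 itself fell by 1.40 ± 0.25 (0.0364). In the IGF axis Stc1, an inhibitor of the protease that cleaves IGF-binding proteins, rose by 1.33 ± 0.22 (0.0284), and in the YAP and TEAD list Ankrd1 fell by 2.73 ± 0.45 (0.0299). In the other 4 comparisons 0 genes of these lists were called by edgeR or limma-voom. At an unadjusted p below 0.05 edgeR had 32 of the 107 in bone (9.92% of all genes), 25 in lung (13.8%), 21 between the sites (8.47%) and 24 in their mean (13.3%). DESeq2 called 10 in bone (2.75% of all genes), 8 in lung (2.6%), 9 between the sites (1.6%) and 12 in their mean (3.38%). In RM1536 against RM1 the 17 list genes called by edgeR became 7 without RM1 a, 4 without RM1536 a and 6 without RM1536 b.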

How the data were processed

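Raw counts per gene were deposited by the authors for 6 libraries made with a NEBNext Ultra kit from RNA of cultured or regrown RM1 cells. TopHat2 2.1.10, HTSeq, edgeR and GRCm38 are named, per the submitters' processing notes. The labels record neither a strand setting nor an annotation release. The entry with no gene name was left out (0.00626% to 0.00830% of counts).

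Counts were tested with edgeR 4.0.16 in R 4.3.3: TMM factors, a low-count filter by group, and the quasi-likelihood test over 4 groups and 6 libraries, with Benjamini-Hochberg adjustment over 13832 genes and a threshold of 0.05. The low-count filter takes its minimum from the smallest group, which is 1 library. The labels' groups gave 5 comparisons. The SE of a log2 fold change was derived from the test, as its size divided by the square root of the quasi-likelihood F statistic. The script was tested on simulated data. DESeq2 1.42.0, limma-voom (limma 3.58.1), other scaling, other filters, a replicate block and leaving out each culture library were alternatives. Counts of duplicates differed beyond sampling noise in both pairs.

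Exon lengths came from GENCODE M21, in which 4 CCN genes carry newer symbols. They merge the exons of all transcripts of a gene, so a gene with shorter expressed transcripts is understated per kb. Antisense genes cover 20.1% of Fbn1 and 23.2% of Ctgf exons. Without the strand setting their reads cannot be told apart.

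Values per library were given for called members, for others with a mean of at least 5 CPM and a log2 fold change of at least 1 in size in RM1536 against RM1 or in the mean of bone and lung against RM1536, and for the 5 highest per kb. In the neighbour lists only called genes with a mean of at least 5 CPM were named, at most 4 a direction, and some of these and of the marker genes are not reported here. Thbs1, Hspg2, Nov, Itga8 and the marker genes were described after their values were seen where these rules do not name them. The members and lists were chosen with earlier results of these data known.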

Additional observations from a re-analysis of the deposited data

How the results depend on the processing

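Called genes in RM1536 against RM1 (780 in all, 9 members, 17 neighbour-list genes) became 1471, 20 and 27 with DESeq2 and 2394, 23 and 45 with no low-count filter. Leaving out a culture library gave 196 to 513 genes, 4 to 11 members and 4 to 14 list genes. With the replicate block on the 4 culture libraries the counts were 295, 7 and 5, and calls of Fbln1 (adjusted p = 0.0930), Thbs2 (0.0533), Bgn (0.0687) and Agrn (0.0784) were among those lost. The letters do not establish pairs, since there are only 2 and the deviations of the libraries lettered a correlated at -0.37 over 13832 genes. A crossed replicate block, chosen after seeing the data, gave 3165, 23 and 43. In bone against RM1536 (2, 0 and 0) DESeq2 gave 380, 10 and 10, no filter 859, 17 and 19, limma-voom 0 genes, and leaving out a library 0 to 128, 0 to 7 and 0 to 5. In lung against RM1536 (0, 0 and 0) DESeq2 gave 359, 5 and 8, no filter 1299, 14 and 16, and leaving out a library 0 to 7 genes. For bone against lung (1, 0 and 0) these were 221, 7 and 9, then 754, 11 and 13, and leaving out a library gave up to 32, 4 and 2; limma-voom, library totals and a filter of CPM of at least 1 in 2 libraries each gave 0 genes. For the mean of both sites (4, 0 and 0) DESeq2 gave 467, 8 and 12 and no filter 1225, 17 and 16. Leaving out a library gave 0 to 75, 0 to 2 and 0 to 2 there, bone alone gave 2 genes, and lung alone, limma-voom, library totals and the CPM filter gave 0. The sign reversed for Igfbp7 in RM1536 against RM1 without RM1536 b (-1.73; 2.47 without RM1 a, the range over left-out libraries) and for Bgn over both sites with lung alone (2.37). The cause was not tested. Of 89 single-gene results, 67 uncalled ones passed under at least 1 other setting. With no low-count filter 67 passed, with DESeq2 39 and with limma-voom 1. Bone and lung have 1 library each, and 3 reads, the limit that a count of 0 allows, are 0.0971 to 0.132 CPM.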
